A study of Drosophila melanogaster with 35 samples.

Results

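The laminin genes LanA, LanB1 and LanB2 and the collagen IV genes vkg and Col4a1 encode the main structural proteins of the Drosophila basement membrane. These 5 genes, of 13986 annotated protein-coding genes, were chosen by name, and every deposited CLAMP peak that overlapped one of them on its own strand by at least 1 nt was taken. They held 10 of the 3235 peaks in 5 deposited lists. All 10 peaks were in the list for chromatin of S2 cells, in LanA, LanB1, LanB2 and vkg, and Col4a1 had no peak in any list.

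Laminin is a secreted heterotrimer in which an alpha, a beta and a gamma chain, here LanA, LanB1 and LanB2, are joined through a coiled coil. Collagen IV is a rope-like trimer built in flies from the alpha1 chain Col4a1 and the alpha2 chain encoded by vkg (viking). Circulating blood cells (hemocytes) and the fat body secrete both proteins into the basement membrane, and S2 and Kc cells are embryonic lines with hemocyte-like features. CLAMP (chromatin-linked adaptor for MSL proteins) recognises GA repeats in DNA through zinc fingers and helps to recruit the dosage compensation complex to the male X chromosome. None of the 5 genes is X-linked. Like those of other secreted proteins, their mRNAs are translated at the endoplasmic reticulum after export from the nucleus.

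The series used fractionation iCLIP, in which ultraviolet light of 254 nm crosslinks RNA to protein in living cells, the cells are separated into chromatin, nucleoplasm and cytoplasm, and RNA is recovered from each with an antibody to CLAMP. It compared a male line, S2, with a female line, Kc. All libraries came from crosslinked cells, with 24 libraries made with the CLAMP antibody, 4 for every combination of line and fraction, and 11 made without antibody. The 5 peak lists come from chromatin and nucleoplasm of S2 and Kc cells and from the cytoplasm of Kc cells, and S2 cytoplasm was not analysed here. With a single list for a line and fraction, values have no replicate error and p-values compare lists, not cultures. Coordinates are on dm6. A control peak list was not used here, and a peak is therefore not shown to be a contact of CLAMP.

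The chromatin list of S2 cells was the largest, with 1416 peaks, and that of Kc cells held 874. The nucleoplasm lists held 391 peaks for S2 and 546 for Kc, and the Kc cytoplasm list 8. The lists hold no read counts, so the depth behind each peak is unknown, and the deposited score was 0 in every peak. Peaks in exons of protein-coding genes numbered 408 in S2 chromatin and 50 in Kc chromatin, and in nucleoplasm 9 for S2 and 46 for Kc. Kc cytoplasm had 0.

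In S2 chromatin, 4 of the 5 genes had at least 1 peak, while 3.22% of all protein-coding genes did (451 of 13986). The 4 genes had 2 or 3 peaks each, and 0.465% of protein-coding genes had at least 2 (65 of 13986). The 5 genes were chosen with these counts known, so these shares are set side by side as a description. Gene length goes with the number of peaks: the canonical mRNAs of the 5 genes are 5857 to 11690 nt long, longer than at least 94.7% of protein-coding genes. Among the 743 protein-coding genes with an mRNA of 5857 nt or more, 12.4% had a peak in S2 chromatin (92 genes) and 2.96% had at least 2 (22 genes). Per length, the 5 mRNAs together had 0.275 peaks per kb, all protein-coding genes had 0.0128 peaks per kb, and those with an mRNA of 5857 nt or more had 0.0130 peaks per kb. The last 2 rates rest on 408 and 83 peaks in exons, whereas the shares of genes count any overlap, introns included. Both sets of genes include the 5. How much of each mRNA the cells contain was not measured, and its part in these rates was not tested.

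**Figure D1:**
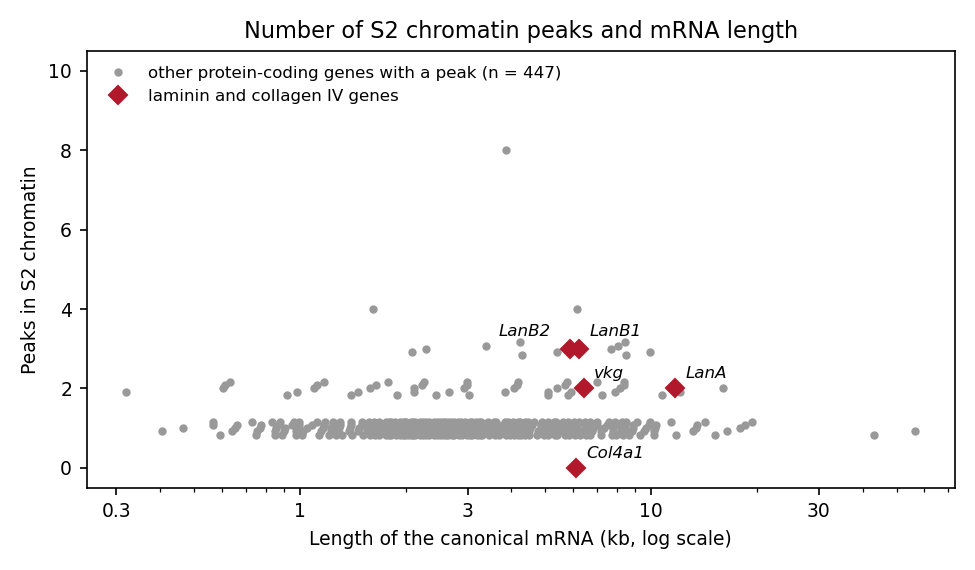
Number of peaks in S2 chromatin (vertical axis, points of 1 to 3 peaks spread slightly for legibility) against the length of the canonical mRNA in kb (log scale). Red diamonds are the 5 laminin and collagen IV genes and grey points the 447 other protein-coding genes with a peak; LanB1 and LanB2 sit at 3 peaks, LanA and vkg at 2, and Col4a1 at 0, all with mRNAs of 5857 nt or more.

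LanB1, the laminin beta chain gene (FBgn0261800, 2L 7811438 to 7820771, plus strand), had 3 peaks in S2 chromatin and 0 in every other list. The first lay in the 5' UTR at 2L:7814578-7814607, 30 nt wide. It began 2 nt inside exon 2 of 5, a 76 nt exon, and ended 181 nt before the start codon. The second, at 2L:7815436-7815461 (26 nt), lay in the 2846 nt exon 3 over codons 163 to 172 of 1788. The third, at 2L:7819584-7819611 (28 nt), lay in the 2668 nt exon 4 over codons 1521 to 1530. The LanB1 peaks thus spanned the message, with midpoints at 5.65%, 16.8% and 82.1% of its 6235 nt, and both annotated isoforms contain all of them.

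LanB2, the laminin gamma chain gene (FBgn0267348, 3L 9614914 to 9623980, plus strand), also had 3 peaks in S2 chromatin and 0 elsewhere. The 23 nt peak at 3L:9617403-9617425 covered codons 53 to 60 of 1639 and ended 16 nt before the end of exon 2 of 10. The 29 nt peak at 3L:9621387-9621415 covered codons 1031 to 1041, within the 2586 nt exon 7. The last peak, 23 nt wide at 3L:9623436-9623458, lay in the 3' UTR and began 45 nt after the stop codon, 522 nt before the end of the mRNA. As in LanB1, the LanB2 peaks were spread over the message, at 8.79%, 59.0% and 90.9% of its 5857 nt, in exons of both isoforms. With 0.512 and 0.481 peaks per kb of mRNA, LanB2 and LanB1 had the highest rates of the 5 genes.

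LanA, which encodes the laminin alpha chain (FBgn0002526, 3L 6203831 to 6218022, minus strand), had 2 peaks in S2 chromatin, both in coding sequence. The peak at 3L:6215211-6215240 (30 nt) covered codons 283 to 293 of 3712 in exon 3 of 15. The peak at 3L:6212247-6212278 (32 nt) covered codons 1140 to 1151 and began 23 nt inside exon 9. Both lay in the 5' part of the message, at 9.16% and 31.2% of its 11690 nt, and no peak fell in the 8032 nt that follow. LanA is the longest of the 5 mRNAs, and its rate of 0.171 peaks per kb was the lowest of the 4 genes with a peak.

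The collagen IV pair gave different counts. The alpha2 gene vkg (FBgn0016075, 2L 5012144 to 5028191, minus strand) had 2 peaks in S2 chromatin and 0 in the other lists. The 35 nt peak at 2L:5014034-5014068 covered codons 1486 to 1497 of 1940 in exon 6 of 9. The 22 nt peak at 2L:5012266-5012287 lay in the 3' UTR, beginning 223 nt after the stop codon and ending 122 nt before the 3' end of the mRNA. Both were in the 3' part of the message, at 73.3% and 97.9% of its 6430 nt, and all 3 isoforms include them.

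Col4a1, the alpha1 gene (FBgn0000299, 2L 5029609 to 5037279, plus strand), had 0 peaks in all 5 lists on either strand. Its canonical mRNA is 6101 nt long, close to the 6430 nt of vkg. The genes lie head to head, with 1417 nt between their start sites, and no list had a peak in that interval. Counts as small as 2 and 0 carry a wide counting error, and the difference between vkg and Col4a1 was not tested.

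**Figure D2:**
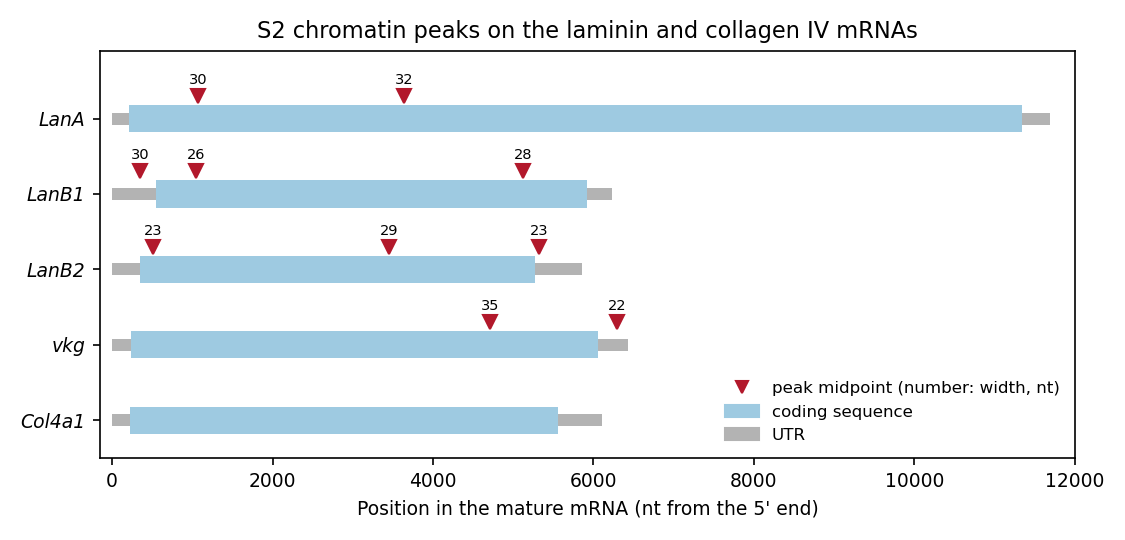
Peaks of the S2 chromatin list on the canonical mRNAs of LanA, LanB1, LanB2, vkg and Col4a1, drawn to scale in nt from the 5' end, with coding sequence in blue and UTRs in grey. Each red triangle is a peak midpoint and the number above it the width in nt; 7 of the 10 peaks lie over coding sequence, 2 in 3' UTRs and 1 in a 5' UTR, and Col4a1 has none.

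All 10 peaks lay in exons, although introns make up 35.1% of the 5 loci (19756 of 56312 nt), from 17.6% of LanA to 59.5% of vkg. Of the 528 S2 chromatin peaks in protein-coding genes, 413 (78.2%) overlapped an exon. The exon count of the 5 genes was the same with the strand ignored, since neither strand held any other peak, and no other annotated gene overlaps them. By gene part, 7 of the 10 peaks were in coding sequence (70.0%), 2 in 3' UTRs (20.0%) and 1 in a 5' UTR (10.0%). Among the 398 other S2 chromatin peaks in exons of protein-coding genes, 51.5% were in coding sequence, 40.5% in 3' UTRs and 8.04% in 5' UTRs. These were classed over all isoforms with coding sequence taken first, and the 10 peaks in the canonical isoform alone. Coding sequence makes up 89.7% of the 5 mRNAs and UTRs 10.3%, so 3 of 10 peaks fell in the smaller part.

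None of the 10 peaks crossed a splice junction, and 2 of 362 other coding exon peaks did, so a count of 0 is near the level of that list. The peaks in LanB1 exon 2, LanB2 exon 2 and LanA exon 9 lay within 25 nt of one, which is 3 of 10 peaks (30%). Among the 362 other peaks, those with a midpoint in an exon of a spliced canonical coding isoform, 31 did (8.56%). The distance of 25 nt was chosen after the values were seen, and the counts are given with no test. Within a message, neighbouring peaks were 669 to 4046 nt apart, both extremes in LanB1.

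The peaks were narrow. Their widths ran from 22 to 35 nt with a median of 28.5 nt, whereas the other 1406 peaks of the S2 chromatin list ran from 16 to 187 nt with a median of 39 nt. Beside other peaks of the same class the gap was smaller: the other 398 peaks in coding exons had a median width of 32 nt and a range of 17 to 113 nt. Of the 10 peaks, 60.0% were under 30 nt wide, against 40.2% of the other coding exon peaks and 25.9% of all other peaks in the list. The widest, in vkg exon 6, was wider than 58.6% of the coding exon peaks, and the narrowest, in the vkg 3' UTR, was wider than 5.15% of them. With peaks of at least 30 nt, 4 of the 10 were left, which were both LanA peaks, the 5' UTR peak of LanB1 and the coding peak of vkg. None of the LanB2 peaks reached that width.

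**Figure D3:**
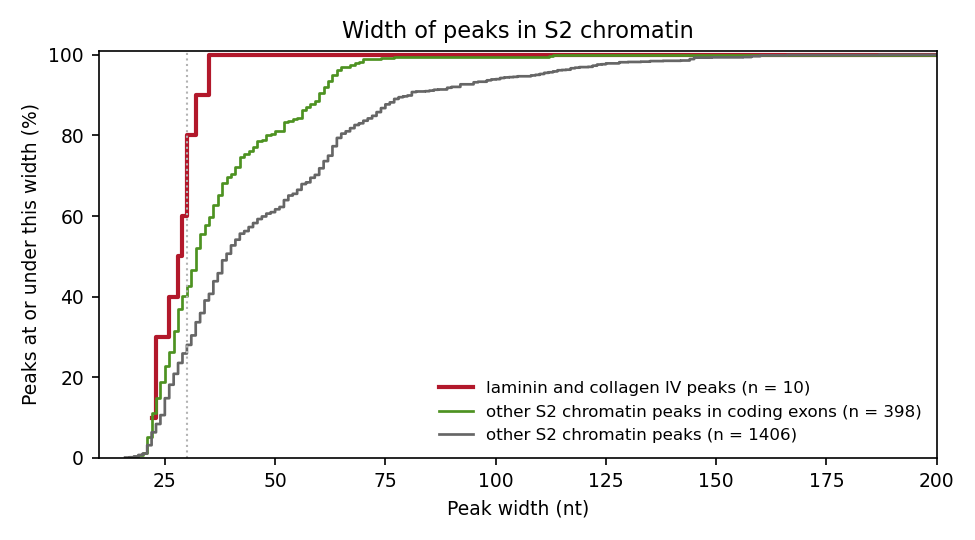
Cumulative share of peaks (vertical axis, percent) at or under a given width (horizontal axis, nt) in S2 chromatin for the 10 laminin and collagen IV peaks, the 398 other peaks in exons of protein-coding genes and all 1406 other peaks of the list; the dotted line marks 30 nt. The red curve ends at 35 nt, where the other curves still rise.

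The lines and fractions were then compared for these genes, which addresses whether RNAs recovered with CLAMP differ between male and female cells and between fractions. With 1 line of each sex, sex cannot be told apart from line, nor either from the making of a list. The 5 genes held 10 of 1416 peaks in S2 chromatin, 0.706% (exact Clopper-Pearson 95% interval 0.339 to 1.29%). In Kc chromatin they held 0 of 874, which allows a share of up to 0.343% by a limit of 3 peaks, or 0.421% by the upper end of the two-sided exact interval that the S2 chromatin value carries. The limits given next are of the first kind, and the plot of shares by list shows the exact intervals. None of the 99 protein-coding genes with a Kc chromatin peak (0.708% of protein-coding genes) was one of the 5. The same was true of the 17 genes of S2 nucleoplasm (0.122%) and the 71 of Kc nucleoplasm (0.508%), and Kc cytoplasm had 0 such genes (0%). Limits for a count of 0 were 0.767% of peaks in S2 nucleoplasm and 0.549% in Kc nucleoplasm, and the 8 peaks of Kc cytoplasm set no useful limit (37.5%).

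The absence from Kc chromatin has to be read against how few coding peaks that list holds. Among peaks in exons of protein-coding genes, the 5 genes took 10 of 408 in S2 chromatin, 2.45% (1.18 to 4.46%), and 0 of 50 in Kc chromatin, which allows up to 6%. A share as large as that of S2 chromatin was therefore not detectable in the coding exon peaks of Kc chromatin, nor among the 46 of Kc nucleoplasm (limit 6.52%) or the 9 of S2 nucleoplasm (limit 33.3%). Absence from Kc chromatin was also the usual state of genes in the S2 chromatin list. Of the 451 protein-coding genes with an S2 chromatin peak, 92.0% had none in Kc chromatin, and 88.2% had none in any other list. Of the 65 with at least 2 S2 chromatin peaks, 72.3% had none in Kc chromatin and 63.1% had none in any other list. All intervals and limits cover counting error only and treat peaks as independent. They take no account of the choice of the 5 genes with their S2 chromatin counts known.

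**Figure D4:**
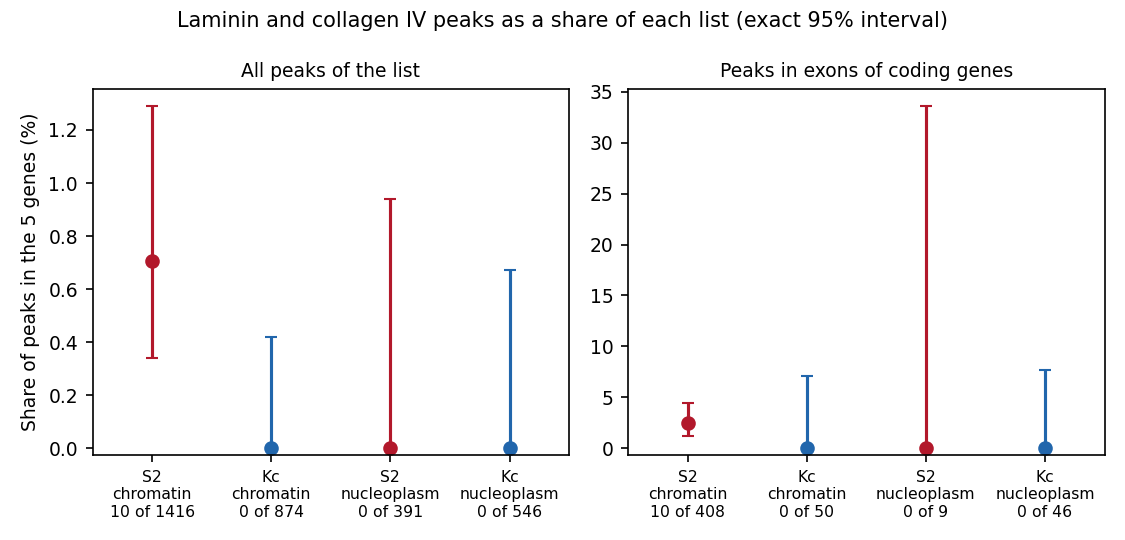
Share of peaks that fell in the 5 genes (vertical axes, percent, on different scales) in each list with over 8 peaks, out of all peaks of the list (left) and out of peaks in exons of protein-coding genes (right), with counts below each list name; S2 lists are red and Kc lists blue, and bars are exact 95% intervals. On the left the interval of S2 chromatin (0.339 to 1.29%) reaches above those of the other lists but overlaps each of them. Their upper ends are 0.421% in Kc chromatin, 0.939% in S2 nucleoplasm and 0.673% in Kc nucleoplasm. On the right the intervals of Kc chromatin and of both nucleoplasm lists extend beyond that of S2 chromatin.

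Gene by gene, no difference between the lists was detected. LanB1 and LanB2 each took 3 of the 1416 S2 chromatin peaks (0.212%) and 0 of the 874 Kc chromatin peaks, with a two-sided Fisher's exact p of 0.292 and a Benjamini-Hochberg adjusted p of 1 over 755 genes. For LanA and vkg, each with 2 S2 chromatin peaks (0.141%) and no Kc chromatin peak, the exact p was 0.528 (adjusted p 1). The test called 0 of 755 genes in either direction (0%). At an unadjusted p under 0.05, 0 genes had a higher share in S2 chromatin and 4 a lower share (0.530%). A gene with no Kc chromatin peak needed 7 peaks in S2 chromatin to reach an unadjusted p under 0.05, more than any of the 5 genes had. Between S2 chromatin and S2 nucleoplasm the exact p was 1 for each of the 4 genes (adjusted p 1 over 654 genes). In that comparison 0 of 654 genes were called (0%), and at an unadjusted p under 0.05 there were 0 with a higher and 1 with a lower share in S2 chromatin (0.153%). A gene absent from S2 nucleoplasm needed 14 S2 chromatin peaks to get there.

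The nearest peak of another list was far from each of these sites. On either strand, the closest Kc chromatin peak was 197 to 1770 kb away, so no Kc chromatin peak lay at the edge of one of the 5 genes and was missed by the overlap rule.

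Pooled over genes, other genes of the basement membrane had fewer peaks per length than the 5 laminin and collagen IV genes. The 5 genes were chosen with their counts known, so the contrast is a description. Of 9 other basement membrane genes (wb, trol, Ndg, SPARC, Pxn, Ppn, Mp, Tig and Glt), S2 chromatin held peaks of 2, beside 3.22% of all protein-coding genes. The other lists held peaks of 0 of them. Of all protein-coding genes, 0.708% had a peak in Kc chromatin, 0.122% in S2 nucleoplasm and 0.508% in Kc nucleoplasm, so a count of 0 is near that background. Tig, which encodes the integrin ligand tiggrin, had 2 peaks, a 25 nt peak in coding sequence at 2L:6415455-6415479 and a 29 nt peak in the 3' UTR at 2L:6415290-6415318. A gene on the other strand also overlaps the 3' UTR peak of Tig. The Tig mRNA is 7018 nt long, and LanA had the same number of peaks, 2, on 11690 nt, so the pooled contrast did not hold for every gene. Ppn, which encodes the matrix proteoglycan papilin, had 1 coding peak of 33 nt at 3R:28529581-28529613. Neither the second laminin alpha gene wb nor the perlecan gene trol, the nidogen gene Ndg or SPARC, whose product binds collagen, had a peak. The 9 genes together had 0.0498 peaks per kb in S2 chromatin, with 3 peaks behind the value and no test made. That is below the 0.275 of the 5 laminin and collagen IV genes and above the 0.0128 of all protein-coding genes. Being above the latter was not particular to basement membrane genes. Of the lists described next, receptor genes had 0.0563, collagen processing and export genes 0.0591, hemocyte markers 0.0648 and markers of other cell types 0.

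Of 8 receptor genes (mys, Itgbn, if, mew, scb, ItgaPS4, ItgaPS5 and Dg), S2 chromatin held peaks of 2, beside the same 3.22% of all protein-coding genes, and the other lists of 0. In Kc chromatin and both nucleoplasm lists, 0.122 to 0.708% of protein-coding genes had a peak, so a count of 0 is near that background. The 3.22% is not matched for length: Dg has an mRNA of 6533 nt, and 12.4% of protein-coding genes with 5857 nt or more had an S2 chromatin peak. The integrin beta subunit gene mys had a 38 nt peak in its 3' UTR at X:8069339-8069376, and Dg, which encodes the laminin receptor dystroglycan, a 23 nt coding peak at 2R:16083471-16083493. Of 7 genes for collagen processing and export, 1 had a peak, again beside 3.22% of all protein-coding genes. This was in S2 chromatin, where Plod, the gene of collagen lysyl hydroxylase, had a 29 nt coding peak at 3L:11198789-11198817. The prolyl 4-hydroxylase genes PH4alphaEFB and PH4alphaMP, the lysyl oxidase genes Loxl1 and Loxl2, Pdi and the export factor gene Tango1 had none. No gene of these 3 lists passed the gene-by-gene test, and with so few peaks none could have. The most any of them had in S2 chromatin was 2, in Tig. An unadjusted Fisher's exact p under 0.05 needed 7 peaks against Kc chromatin and 14 against S2 nucleoplasm. The test therefore cannot decide whether these genes differed between lists.

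Most hemocyte markers had no peak in any list. Of 15 such markers, 4 had a peak in S2 chromatin, beside 3.22% of all protein-coding genes, which were Hml (hemolectin, 34 nt, coding), drpr (the engulfment receptor draper, 43 nt, 3' UTR), Ppn and vir-1 (24 nt, coding). In Kc lists, 1 of the 15 had a peak, which was ush, a cofactor of GATA factors in blood cells, with a 25 nt intronic peak in Kc nucleoplasm, where 0.508% of protein-coding genes had one. Ppn counts among both the hemocyte markers and the basement membrane genes. Hml and Ppn have mRNAs of 11756 and 9544 nt, and 12.4% of protein-coding genes with 5857 nt or more had an S2 chromatin peak. Of 9 markers of neurons, germ line, muscle and fat body, 0 had a peak in any list, a count near the background, since 3.22% of all protein-coding genes had a peak in S2 chromatin. A peak list does not measure expression, so these counts do not show which marker RNAs the cells lacked.

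The pattern of LanB1 across the 5 lists, 3 peaks in S2 chromatin and 0 in the others, was shared outside the 5 genes by 4 protein-coding genes, with a summed difference in peak number of 0. These were spin, DIP-alpha, Df31 and Bsg. The next nearest by the rule, pnt and dachs, had 2 peaks in S2 chromatin and 0 elsewhere, a difference of 1. None of these 6 genes had its peaks in the same set of gene parts as LanB1, and spin came nearest. All 3 peaks of DIP-alpha, and both of pnt and of dachs, had midpoints outside coding-gene exons, and Df31 had 2 peaks in its 3' UTR and 1 in its 5' UTR. Bsg had 2 peaks in its 3' UTR and 1 with a midpoint outside coding-gene exons. Only spin had any coding peak among these 6 genes, whereas LanB1 and LanB2 had 2 each. Of the 3 spin peaks, 1 lay in the 5' UTR and 1 in coding sequence, parts that LanB1 peaks also held. The remaining spin peak had its midpoint outside coding-gene exons. Coding peaks were common in the list, at 51.5% of the other S2 chromatin peaks in exons of protein-coding genes.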

How the data were processed

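Cells were crosslinked and CLAMP iCLIP libraries made with barcodes of 4 nt and 31 PCR cycles, per the labels' protocols. STAR 2.5.2b-2, cutadapt 3.5, UMI-tools and FastQC were used on dm6, per the submitters' processing notes. The labels' protocols name the Galaxy CLIP-Explorer workflow for peak calling; the caller, the threshold and the libraries behind each list are not stated there, although labels tie 3 of 4 Kc nucleoplasm CLAMP libraries, and all 4 elsewhere, to their list. Labels of control libraries also name these lists: 1 of 1 in Kc chromatin, 2 of 2 in Kc cytoplasm and 1 of 2 in each nucleoplasm group and in S2 chromatin, and the Kc chromatin control names 2 lists. The deposited lists hold peak coordinates and strand (other columns carry no measurement) and a deposited score of 0 throughout.

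Peaks were placed on Ensembl release 115 genes without transposable elements (18358 genes, dm6, 1-based) with scipy 1.17.1 and numpy 2.4.6 under Python 3.11.15; plots used matplotlib 3.10.9. RefSeq gives the 5 genes the same spans. The gene part of a peak in the 5 genes is that at its midpoint in the canonical isoform. The 398 other coding exon peaks were classed at the midpoint over all isoforms, with coding sequence taken first, then 3' UTR, then 5' UTR. Each gene with a peak in either list was tested with a two-sided Fisher's exact test on peaks, with Benjamini-Hochberg adjustment over all genes tested. The procedure was also run on simulated lists. That run does not alter the reach of the test, which needed 7 S2 chromatin peaks for a gene absent from Kc chromatin. Intervals are exact Clopper-Pearson 95% intervals, and a count of 0 allows 3 peaks.

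The 5 genes and the gene lists were chosen with earlier results of these data known. The text names these 5, every listed gene with a peak, and up to 6 coding genes whose peak numbers over the 5 lists differ least from LanB1's, ties going to the nearest exonic length; listed genes without a peak are named as such. Alternatives were midpoint overlap, strand ignored, width of at least 30 nt, merging within 10 nt, exons only, peaks in 1 gene only, other denominators and adjustment over coding genes. Sequence motifs were not analysed here.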

Additional observations from a re-analysis of the deposited data

How the results depend on the processing

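Of the alternatives tried, the width minimum moved the counts. With peaks of at least 30 nt the 5 genes had 4 peaks in S2 chromatin in place of 10, with 1 in LanB1, 0 in LanB2 and 1 in vkg; 3 of the 5 genes still had a peak, and their share was 0.382% in place of 0.706%. Midpoint overlap, ignored strand, merging, exons only and peaks in 1 gene only left 10 peaks in S2 chromatin, and each of these settings and the width minimum left 0 in Kc chromatin, S2 nucleoplasm and Kc nucleoplasm. Out of coding exon peaks, a denominator added after the data were seen, the S2 chromatin share was 2.45%, and on chromosome arms outside rDNA it was 1.25%. On those arms Kc chromatin held 220 of its 874 peaks, 0 of them in the 5 genes, which allows up to 1.36%. A share as large as that of S2 chromatin was therefore not detectable in the arm peaks of Kc chromatin. The median width of the 10 peaks minus that of other peaks was -10.5 nt, and -3.5 nt against coding exon peaks alone. The number of genes past the adjusted threshold was 0 under each alternative run. Among LanA, LanB1, LanB2 and vkg, the lowest unadjusted p was 0.292 (exact Fisher's test), with an adjusted p of 1. Col4a1, with no peak, was not tested. Gene parts were the same by most overlapped bases and at the peak's 5' end. No paired analysis was possible because each line and fraction has 1 peak list without values per replicate, and for the same reason no replicate was left out. The motif alternative was not run.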
